A study of Mus musculus with 30 samples.

Results

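The comparison asks whether genes that answer nuclear GRHL2 in Kmt2c-KO embryonic stem cells answer it alike after 8 h and after 16 h. It takes the tamoxifen minus ethanol difference at 16 h and subtracts the tamoxifen minus ethanol difference at 8 h. The libraries were chosen by cell line and treatment, which gave 12 of the 30 libraries of the series, and the difference was tested over 12414 genes. All 12 came from a naive mouse embryonic stem cell line (C57BL/6J x 129) with a Kmt2c knockout, floxed Kmt2d alleles and GRHL2-ERT, grown with serum, LIF and inhibitors of MEK and GSK3. They formed 4 groups of 3, namely tamoxifen for 8 h, ethanol for 8 h, tamoxifen for 16 h and ethanol for 16 h. For comparison, 6 libraries came from Kmt2c-KO cells with the same floxed alleles and no GRHL2-ERT, which received tamoxifen for 8 h or 16 h, and 12 from GRHL2-ERT cells that lack both Kmt2c and Kmt2d. The series' description says that clones were picked for similar GRHL2 levels, and the number of clones behind each line was not given in the sources used here.

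GRHL2 is a grainyhead-like transcription factor that opens enhancers of epithelial genes, among them those of cell junctions, and naive embryonic stem cells make little of it. Fused to the ERT domain it stays outside the nucleus until tamoxifen binds. KMT2C and KMT2D are related methyltransferases that place monomethyl marks on lysine 4 of histone H3 at enhancers, and Kmt2c-KO cells still have KMT2D.

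Promoter sequences of genes named below are given first, because the core site of grainyhead factors is known and its letters can be looked for near each start. Windows of 300 bases, from 250 before to 50 after a transcription start, were taken from RefSeq on GRCm38.p6, the build also called mm10. The table held 13 windows for 5 of 11 genes looked for, those whose response differed between times and the first 3 of those raised at both times. AACCGGTT, a full grainyhead core that reads the same on both strands, was in 0 of these 13 windows and in 0.146% of all 32851 windows. The looser ACCNGTT, searched on both strands and contained in the full core, was in 2 of the 13 windows, 1 of Pmp22 and 1 of Klhl13, and in 8.13% of all windows. These 2 windows are printed with the single window of Apela, whose RNA was lower with tamoxifen, and 1 window of Tmem54, which was raised at both times. Capitals mark the ACCNGTT match on either strand.
Pmp22 (chr11:63132553-63132852, plus strand): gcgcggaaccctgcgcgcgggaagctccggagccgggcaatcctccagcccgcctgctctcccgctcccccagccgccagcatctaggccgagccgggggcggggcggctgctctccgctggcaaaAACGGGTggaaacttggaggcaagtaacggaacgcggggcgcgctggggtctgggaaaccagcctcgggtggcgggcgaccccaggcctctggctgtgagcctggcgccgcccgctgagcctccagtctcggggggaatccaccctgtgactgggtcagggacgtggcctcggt
Klhl13 (chrX:23266753-23267052, minus strand): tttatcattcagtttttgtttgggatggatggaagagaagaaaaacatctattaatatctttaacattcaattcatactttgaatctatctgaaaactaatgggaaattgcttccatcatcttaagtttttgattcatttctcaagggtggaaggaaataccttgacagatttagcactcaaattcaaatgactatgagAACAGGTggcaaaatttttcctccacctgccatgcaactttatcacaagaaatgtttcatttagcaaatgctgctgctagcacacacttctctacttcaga
Apela (chr8:65037287-65037586, minus strand): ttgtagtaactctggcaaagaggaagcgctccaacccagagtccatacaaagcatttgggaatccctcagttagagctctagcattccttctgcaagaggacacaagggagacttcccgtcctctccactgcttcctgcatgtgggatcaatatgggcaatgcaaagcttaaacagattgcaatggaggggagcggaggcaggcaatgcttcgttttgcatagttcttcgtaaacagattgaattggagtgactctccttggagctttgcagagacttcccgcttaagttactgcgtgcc
Tmem54 (chr4:129105280-129105579, plus strand): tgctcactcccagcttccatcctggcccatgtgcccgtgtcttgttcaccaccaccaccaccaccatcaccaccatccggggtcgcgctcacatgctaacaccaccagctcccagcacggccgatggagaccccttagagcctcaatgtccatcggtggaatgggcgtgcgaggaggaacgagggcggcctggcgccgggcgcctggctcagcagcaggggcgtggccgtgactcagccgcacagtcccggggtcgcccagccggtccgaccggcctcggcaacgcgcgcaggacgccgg

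RNA was measured by 3' tag sequencing, and levels are given as CPM, tag counts scaled to the size of each library. The 12 libraries held 12.3 to 21.7 M reads, so that 3 reads stood for 0.138 to 0.244 CPM, and replicates correlated at 0.98 or more over genes. The naive stem cell markers (10 of 10 in the table) summed to 9120 to 10400 CPM with tamoxifen and 8290 to 9950 CPM with ethanol at 8 h, and to 10900 to 11900 CPM with tamoxifen and 11100 to 11700 CPM with ethanol at 16 h. Tags of Grhl2 averaged 170 ± 16.4 CPM with tamoxifen and 178 ± 28.3 CPM with ethanol at 8 h, and 77.5 ± 11.5 CPM with tamoxifen and 77.6 ± 11.1 CPM with ethanol at 16 h, against 1.78 to 2.66 CPM on average in transgene-free cells (SD, n = 3 libraries each). Grhl2 tags were thus lower at 16 h than at 8 h with either treatment (ethanol, -1.18 ± 0.25; limma adjusted p = 0.00041), and the part of this in the results below was not tested. Kmt2c tags (11.2 to 26.8 CPM on average) lie at the 3' end, so they do not check the knockout. The share of reads from Rn45s, the ribosomal RNA precursor, was 3.10% to 3.47% with tamoxifen and 4.02% to 7.40% with ethanol at 8 h, and 1.89% to 2.39% with tamoxifen and 2.11% to 2.61% with ethanol at 16 h. Among the other libraries 1 stood apart, replicate 2 of the double-KO tamoxifen group at 8 h, with 8.83 M reads, 7.37% Rn45s (3.76% and 3.89% in the others of its group) and a mean correlation of 0.938 with them. The labels number replicates without saying that they are separate cultures, so each p gauges the spread among these libraries alone, which may be technical, and in bulk RNA fewer responding cells and less RNA per cell cannot be told apart.

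The response to tamoxifen was broad at 8 h and narrow at 16 h. Levels were tested as log2(CPM + 1) with limma, and calls took a two-sided p under 0.05 after Benjamini-Hochberg adjustment over all 12414 genes. At 8 h 615 genes were called (4.95% of those tested), of which 362 rose (2.92%) and 253 fell (2.04%). At 16 h 37 were called (0.298%), of which 36 rose (0.29%) and 1 fell (0.00806%). Of the genes raised at 8 h, 33 were also called at 16 h, which was 9.12% of the 8 h list and 91.7% of the 16 h list, while no gene was lowered at both times. These counts do not test the change itself. The response differed between times for 8 genes (0.0644%), of which 6 responded less positively at 16 h (0.0483%) and 2 less negatively (0.0161%), with 789 genes at an unadjusted p under 0.05. That count was 10, with 4 positive and 6 negative differences, after median-of-ratios scaling. It was 6 without ethanol replicate 2 at 8 h and between 1 and 5 without any other of the 12 libraries, the lowest without ethanol replicate 1 at 16 h. Leaving out each of the 12 libraries in turn, Aldh3b2 was called 12 times, Pmp22 11 times, Rhox6 7 times, Klhl13 4 times, Endod1, Il17re and Lefty2 2 times each and Apela 1 time, and all 8 kept their sign. The count at 8 h was 320 without tamoxifen replicate 2 at 8 h, and the count at 16 h was 24 or 22 without ethanol replicate 1 or 2 and 22 without tamoxifen replicate 3, all at 16 h. Leaving out the double-KO library that stood apart, which enters through the shared estimate of spread, gave 15 calls of the difference with the 8 among them, 1234 at 8 h and 59 at 16 h. With the Rn45s level as a covariate 445 genes were called at 8 h, and 273 of these were among the 615.

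The genes raised at 8 h had a median log2 change of 0.95 at 8 h and 0.31 at 16 h. Of these, 314 of 362 still lay above 0 at 16 h, against 5504 of all 12414 tested genes. The genes lowered at 8 h had medians of -0.75 and -0.21, and 219 of 253 still lay below 0, against 6897 of all tested genes. Choosing genes by their 8 h value favours a larger 8 h value, so these medians are descriptions. The choice runs the other way for the 36 genes raised at 16 h, whose medians were 1.33 at 8 h and 1.16 at 16 h. Of these 36, 25 had the smaller absolute change at 16 h. So did 8372 of all 12414 tested genes, a like share, so that count is no result about the 36. Their median difference was -0.26, against -0.06 over all tested genes. The 13 of them with at least 5 CPM in ethanol at 16 h, a limit set after the values were seen, had medians of 0.80 at 8 h and 0.77 at 16 h. Genes picked on other libraries, by their call in double-KO cells, were also compared. In that line 12 genes were called at 8 h (0.0967%; 8 higher, 0.0644%, and 4 lower, 0.0322%) and 5 at 16 h (0.0403%; 4 higher, 0.0322%, and 1 lower, 0.00806%). The 8 genes raised there at either time had medians of 0.94 at 8 h and 0.63 at 16 h in Kmt2c-KO cells, and the 5 lowered there had -0.84 and -0.24.

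**Figure D1:**
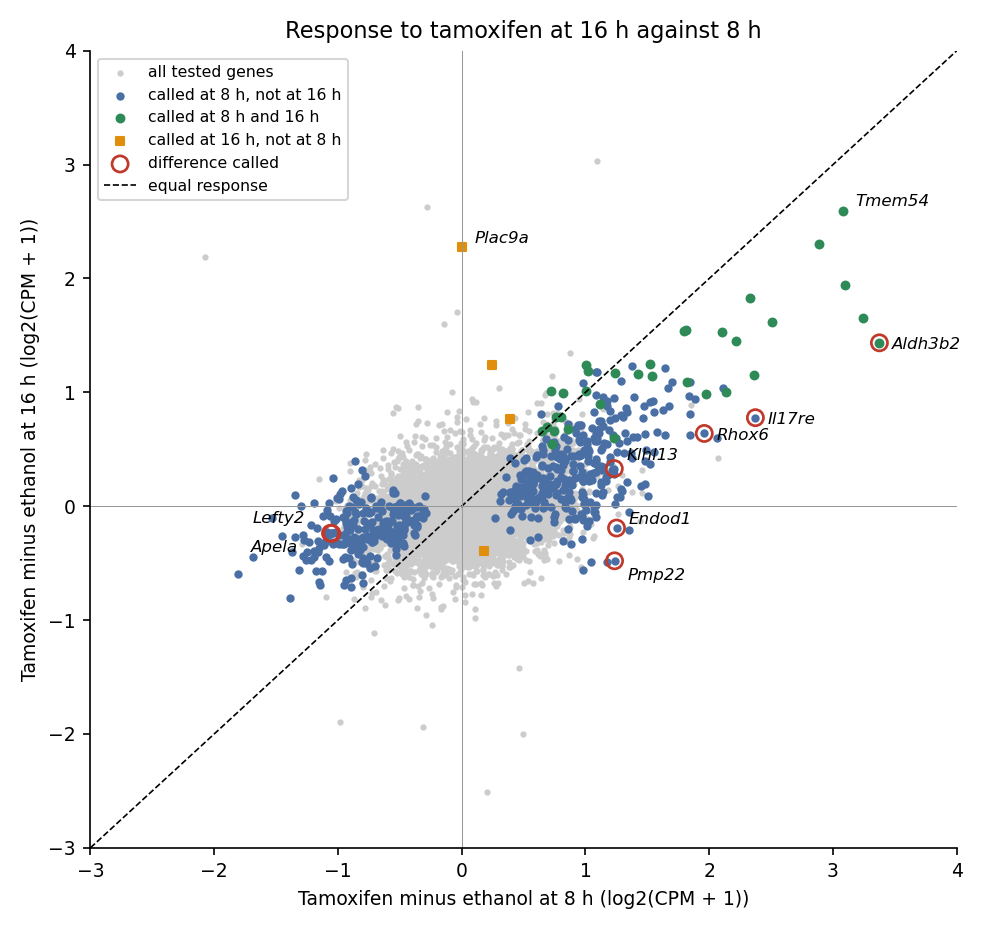
Tamoxifen minus ethanol difference of each tested gene at 8 h (horizontal) and 16 h (vertical), both in log2(CPM + 1), in GRHL2-ERT Kmt2c-KO cells. Colours give the calls at each time, red rings mark the 8 genes whose difference between times was called, and the dashed line marks equal responses. Most called genes lie between the dashed line and the horizontal axis, with medians of 0.95 at 8 h and 0.31 at 16 h for the genes raised at 8 h.

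Of the 6 genes with a lower response at 16 h, Aldh3b2 alone was called at 16 h. Aldh3b2, an aldehyde dehydrogenase gene (mm10 chromosome 19, 3972328 to 3981646), had the largest difference. It had 8.96, 10.5 and 8.77 CPM with tamoxifen at 8 h and a listed level of 0 in each ethanol library, so that tamoxifen was at least 46.5-fold higher when each ethanol library is set to 3 reads. At 16 h it had 2.03, 1.41 and 2.14 CPM with tamoxifen, against 0, 0.159 and 0 CPM with ethanol. Each tamoxifen library was thus above each ethanol library at both times, but at a lower level at 16 h. The difference between times was -1.94 ± 0.28 (SE; limma adjusted p = 0.002), from 3.38 ± 0.20 at 8 h and 1.43 ± 0.20 at 16 h. With a pseudocount of 0.1 Aldh3b2 was not called (-2.75, limma adjusted p = 0.58).

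Il17re encodes a subunit of the receptor for IL-17C, a cytokine of epithelial cells (chromosome 6, 113458484 to 113470758). Its RNA was at 5.41, 6.30 and 4.06 CPM with tamoxifen and at 0.178, 0.245 and 0.162 CPM with ethanol at 8 h. At 16 h the tamoxifen libraries had 0.825, 0.919 and 1.19 CPM, against 0.0634, 0 and 0.431 CPM in the ethanol libraries. The groups did not overlap at either time. The response was 2.37 ± 0.21 at 8 h and 0.78 ± 0.21 at 16 h, and the change at 16 h was not called (limma adjusted p = 0.18). The difference of -1.60 ± 0.30 (limma adjusted p = 0.023) was not called with a pseudocount of 0.1 (-1.79, adjusted p = 0.80).

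Rhox6 and Klhl13, both on the X chromosome, were well above the counting floor in all 12 libraries. Rhox6, a homeobox gene of the reproductive Rhox cluster (37826910 to 37829857), had 85.9, 105 and 86.5 CPM with tamoxifen, against 21.7, 21.6 and 25.7 CPM with ethanol at 8 h. At 16 h it had 34.4, 34.2 and 28.3 CPM with tamoxifen, against 23.0, 13.3 and 27.1 CPM with ethanol. The gap was thus wide at 8 h and narrow, without overlap, at 16 h. The fold of mean CPM was 4.02 at 8 h and 1.53 at 16 h, where it was not called (limma adjusted p = 0.12), and the difference was -1.32 ± 0.23 (limma adjusted p = 0.018). Rhox genes are close copies of each other, and reads shared among them may have been split. Klhl13 encodes an adaptor of the CUL3 ubiquitin ligase (23219271 to 23365082). It had 211, 212 and 231 CPM with tamoxifen, against 107, 80.2 and 91.2 CPM with ethanol at 8 h, and 61.6, 58.7 and 59.2 CPM with tamoxifen, against 46.7, 42.3 and 53.7 CPM with ethanol at 16 h. Again the groups did not overlap at either time, and the fold of means was 2.35 at 8 h and 1.26 at 16 h, where the change was not called (limma adjusted p = 0.50). The difference was -0.90 ± 0.16 (limma adjusted p = 0.021). Klhl13 also fell with time in ethanol alone, by 0.95 ± 0.12 (limma adjusted p = 4.6e-07).

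Pmp22 and Endod1 showed no increase at 16 h. Pmp22, a tetraspan membrane protein of myelin and of epithelial junctions (chromosome 11, 63128982 to 63159547; see the windows above), had 14.1, 18.1 and 18.8 CPM with tamoxifen, against 4.94, 5.88 and 9.73 CPM with ethanol at 8 h. At 16 h it had 1.58, 2.39 and 2.20 CPM with tamoxifen, against 4.31, 3.41 and 2.23 CPM with ethanol. The groups were apart at 8 h and overlapped at 16 h, where the change was -0.48 ± 0.20 (limma adjusted p = 0.85). The difference of -1.71 ± 0.28 had a limma adjusted p of 0.010, and of 0.062 without ethanol replicate 1 at 16 h. Endod1, named for an endonuclease domain (chromosome 9, 14353990 to 14381507), had 12.3, 8.02 and 11.1 CPM with tamoxifen, against 3.27, 4.71 and 3.41 CPM with ethanol at 8 h, and 2.40, 2.14 and 2.56 CPM with tamoxifen, against 2.98, 2.54 and 3.02 CPM with ethanol at 16 h. It overlapped between treatments at 16 h (-0.19 ± 0.21). Its difference, -1.44 ± 0.29 (limma adjusted p = 0.048), was not called with the Rn45s level as a covariate (adjusted p = 0.22), while the other 7 genes were.

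The 2 positive differences belonged to genes lowered at 8 h. Lefty2, a secreted inhibitor of Nodal (chromosome 1, 180893108 to 180899103), had 93.5, 91.1 and 97.2 CPM with tamoxifen, against 203, 225 and 163 CPM with ethanol at 8 h. At 16 h it had 105, 118 and 114 CPM with tamoxifen, against 133, 135 and 129 CPM with ethanol. The tamoxifen libraries were the lower ones at both times, and the difference of 0.81 ± 0.15 (limma adjusted p = 0.022) came with less RNA in ethanol at 16 h than at 8 h (-0.56 ± 0.11; adjusted p = 0.00015). Apela encodes a peptide ligand of the apelin receptor, made by pluripotent cells (chromosome 8, 65028417 to 65037336). It had 75.5, 78.4 and 77.5 CPM with tamoxifen, against 180, 151 and 156 CPM with ethanol at 8 h, and 211, 192 and 197 CPM with tamoxifen, against 244, 228 and 236 CPM with ethanol at 16 h. In Apela the tamoxifen libraries moved more with time, by 1.36 ± 0.11, against 0.54 ± 0.11 in ethanol, and the difference was 0.82 ± 0.15 (limma adjusted p = 0.022). The ratio of mean CPM was close in both genes, 0.477 for Lefty2 and 0.475 for Apela at 8 h, and 0.847 and 0.848 at 16 h.

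**Figure D2:**
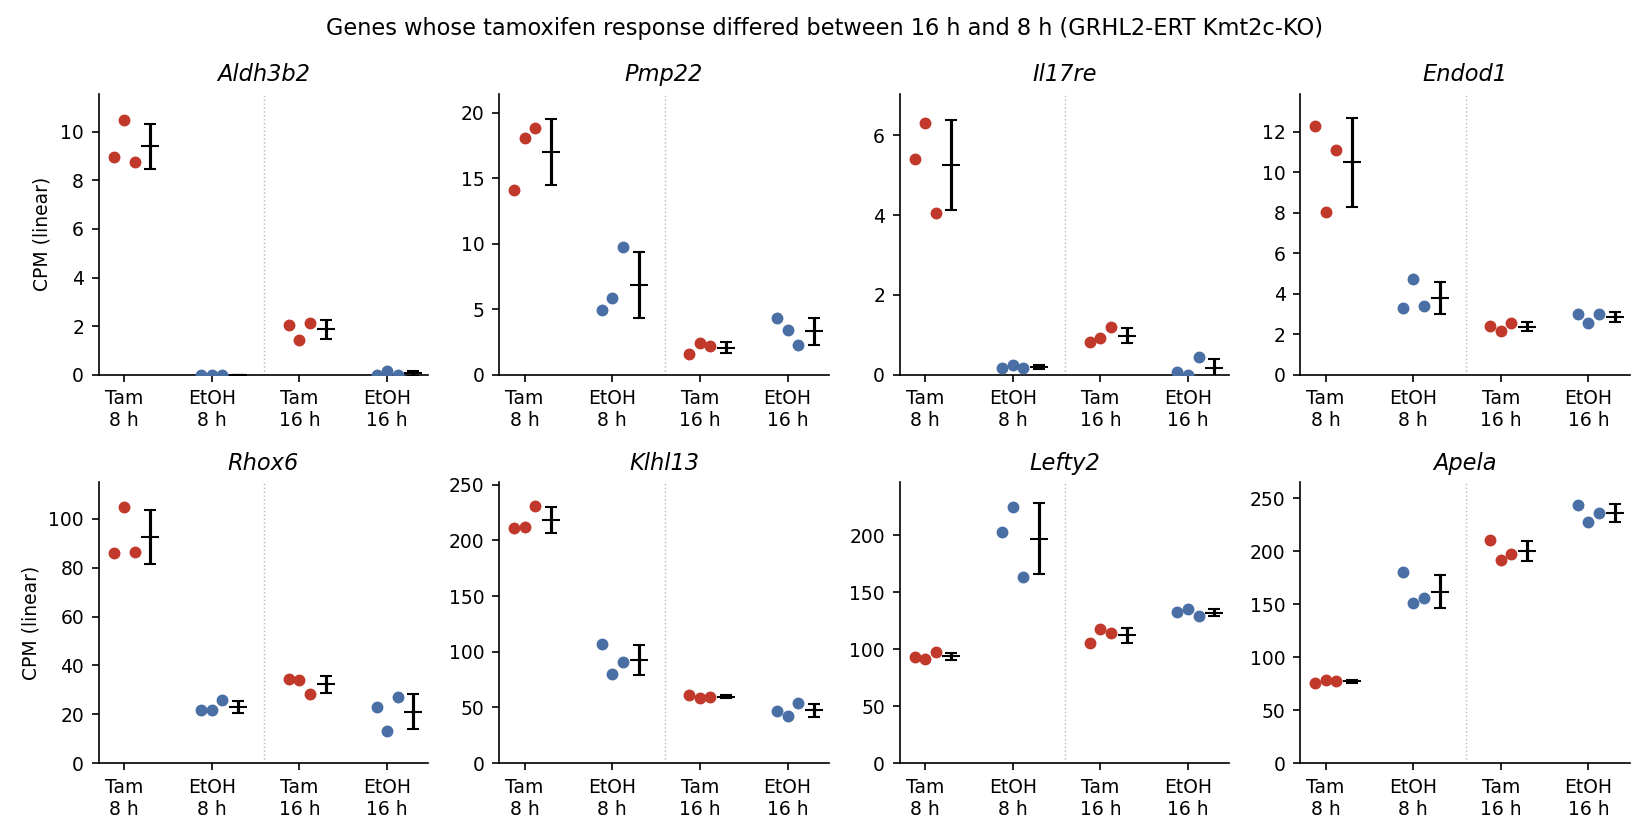
CPM on a linear axis from 0 in each tamoxifen (red) and ethanol (blue) library at 8 h and 16 h, for the 8 genes with a called difference between times; bars give the mean and SD of 3 libraries. The gap between treatments is wide at 8 h and small at 16 h, as in Rhox6 (fold of means 4.02 and 1.53).

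Just past the threshold lay genes with differences of like size. Tcl1, an AKT coactivator of naive cells, had 6.34, 4.38 and 4.43 CPM with tamoxifen, against 18.0, 21.6 and 15.7 CPM with ethanol at 8 h, and 18.2, 22.2 and 22.1 CPM with tamoxifen, against 26.6, 29.6 and 29.9 CPM with ethanol at 16 h. The groups stayed apart at both times, and the difference was 1.24 ± 0.26 (limma adjusted p = 0.065). It was called after median-of-ratios scaling (limma adjusted p = 0.029) but not with a pseudocount of 0.1 (limma adjusted p = 0.32). Leaving out each of the 12 libraries in turn, Tcl1 was called 1 time. For Wnt7b, a WNT ligand, the difference was -1.59 ± 0.33 (limma adjusted p = 0.070) and for Ncam1, a neural adhesion molecule, it was 0.80 ± 0.17 (adjusted p = 0.071).

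Transgene-free Kmt2c-KO cells gave a control that had tamoxifen but no GRHL2-ERT. Subtracting it in place of ethanol uses the same tamoxifen libraries, so the values are given side by side and are no independent support. With this control 19 genes were called (0.153%; 7 higher, 0.0564%, and 12 lower, 0.0967%), 4 of the 8 among them. That count was 73 without the double-KO library that stood apart, 12, 7 and 6 without tamoxifen replicate 1, 2 or 3 at 16 h, and 9, 4 and 9 without tamoxifen replicate 1, 2 or 3 at 8 h. The difference was -1.99 ± 0.28 for Aldh3b2 (limma adjusted p = 0.00061), -1.41 ± 0.23 for Rhox6 (0.005), -1.50 ± 0.30 for Il17re (0.027) and 1.12 ± 0.15 for Apela (0.00061). It was -1.16 ± 0.28 for Pmp22 (limma adjusted p = 0.096), -0.98 ± 0.29 for Endod1 (0.23), -0.55 ± 0.16 for Klhl13 (0.23) and 0.56 ± 0.15 for Lefty2 (0.15), so these 4 were not called. Of these 4, Pmp22, Klhl13 and Endod1 averaged higher at 8 h in transgene-free cells with tamoxifen than in GRHL2-ERT cells with ethanol. Pmp22 had 10.7 ± 1.57 against 6.85 ± 2.54 CPM, with overlapping libraries. Klhl13 had 121 ± 4.99 against 92.7 ± 13.4 CPM, and Endod1 6.24 ± 0.868 against 3.8 ± 0.797 CPM. Lefty2 averaged lower, with 186 ± 14 against 197 ± 31 CPM. These gaps were not tested. Utf1, a pluripotency gene, was called with the transgene-free control (1.18 ± 0.18, limma adjusted p = 0.0013), and with ethanol it had 0.80 ± 0.18 (limma adjusted p = 0.095).

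The same difference in GRHL2-ERT double-KO cells was called by limma for 0 genes (0.0%), with 714 at an unadjusted p under 0.05. For Aldh3b2 it was -0.01 ± 0.28, for Pmp22 0.10 ± 0.28, for Rhox6 -0.11 ± 0.23 and for Klhl13 0.03 ± 0.16. Il17re had -0.59 ± 0.30 and Lefty2 0.20 ± 0.15. In that line Aldh3b2 averaged 0.301 ± 0.431 CPM with tamoxifen and was listed at 0 with ethanol at 8 h. Pmp22 averaged 51.8 ± 9.14 CPM with tamoxifen and 50.9 ± 9.50 CPM with ethanol at 8 h, and Klhl13 774 ± 127 CPM with tamoxifen and 740 ± 90.8 CPM with ethanol. The test of the difference between Kmt2c-KO and double-KO cells called 0 genes (0.0%; 923 at an unadjusted p under 0.05), with a limma adjusted p of 0.25 for Aldh3b2 (-1.93 ± 0.40), so the change over time was not shown to differ between the lines. The replicates of the double-KO tamoxifen group at 8 h agreed least of all groups (correlations from 0.925). Without replicate 2 of that group limma again called 0 genes in the double-KO difference and 0 between the lines.

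**Figure D3:**
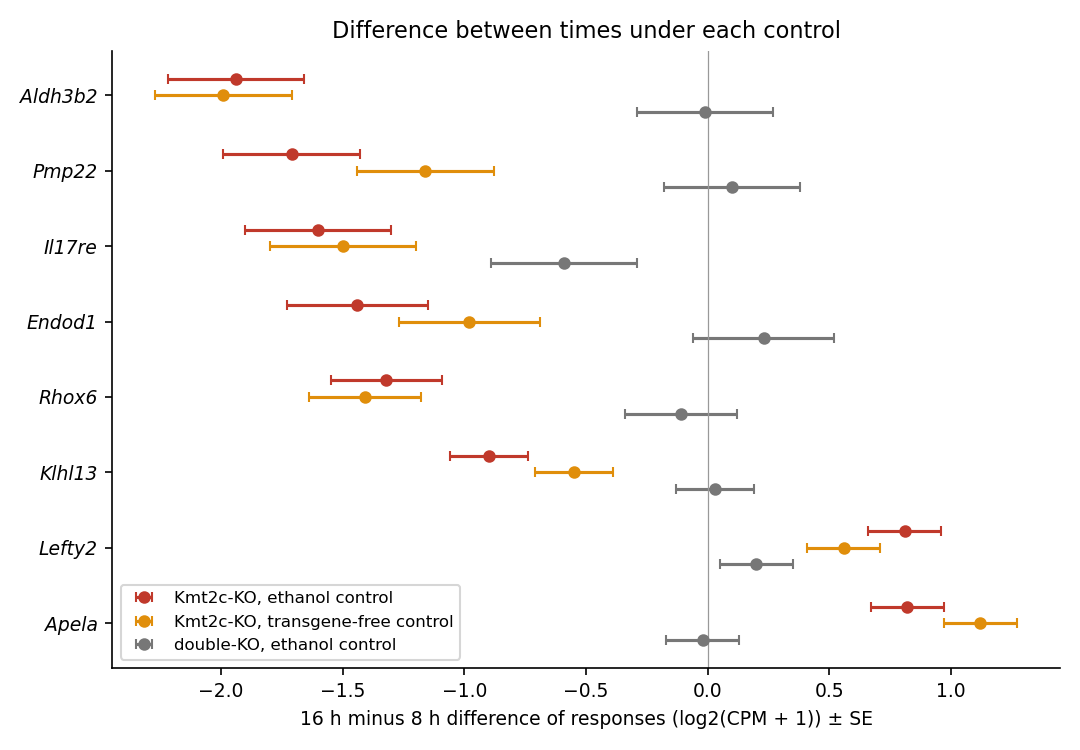
The 16 h minus 8 h difference of responses, in log2(CPM + 1) with its SE, for the 8 called genes in Kmt2c-KO cells against ethanol (red), in Kmt2c-KO cells against transgene-free cells (orange), and in double-KO cells against ethanol (grey). Red and orange share the tamoxifen libraries; Aldh3b2 lies at -1.94 (red), -1.99 (orange) and -0.01 (grey).

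Among the 33 genes raised at both times, those whose smaller change was largest are described here. The first was Tmem54, a transmembrane protein gene (chromosome 4, 129105548 to 129111626). It had 9.57, 11.3 and 13.8 CPM with tamoxifen, against 0.178, 0.429 and 0.892 CPM with ethanol at 8 h, and 7.35, 5.27 and 4.76 CPM with tamoxifen, against 0.190, 0 and 0.144 CPM with ethanol at 16 h. Tamoxifen libraries lay far above ethanol ones at both times, with changes of 3.08 ± 0.25 and 2.60 ± 0.25 and a difference of -0.48 ± 0.35 (limma adjusted p = 0.89). The direction of this difference depends on the scale, since the fold of mean CPM was 23.1 at 8 h and 52.0 at 16 h, and with a pseudocount of 0.1 the difference was 0.47 ± 0.86 (limma adjusted p = 0.93). Acsl5, which activates long-chain fatty acids, had 25.3, 25.3 and 23.5 CPM with tamoxifen, against 2.56, 4.96 and 5.35 CPM with ethanol at 8 h, and 9.68, 13.1 and 14.7 CPM with tamoxifen, against 3.55, 2.22 and 2.59 CPM with ethanol at 16 h. The groups were again apart, at folds of mean CPM of 5.76 and 4.48. Pea15a, a death effector domain adaptor of ERK signalling, had folds of 6.21 at 8 h (64.2 ± 11.2 CPM with tamoxifen and 10.3 ± 0.540 CPM with ethanol) and 3.34 at 16 h (26.0 ± 2.15 CPM with tamoxifen and 7.78 ± 0.322 CPM with ethanol). The difference in Pea15a was -0.89 ± 0.29 (limma adjusted p = 0.46).

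Wnt7b and Bnipl were raised at both times as well. Wnt7b had 20.2, 17.6 and 24.6 CPM with tamoxifen, against 1.13, 1.22 and 1.54 CPM with ethanol at 8 h, and 3.45, 5.03 and 5.29 CPM with tamoxifen, against 0.444, 0.953 and 0.935 CPM with ethanol at 16 h. Its fold of means was thus 16.0 at 8 h and 5.91 at 16 h. Bnipl, of the BNIP2 family, averaged 14.7 ± 1.92 CPM with tamoxifen and 0.942 ± 0.769 CPM with ethanol at 8 h, and 4.36 ± 0.745 CPM with tamoxifen and 0.421 ± 0.411 CPM with ethanol at 16 h. Lypd2, of the LY6 family, had 2.95, 2.65 and 1.89 CPM with tamoxifen at 8 h and was listed at 0 with ethanol, and had 1.95, 2.94 and 2.5 CPM with tamoxifen, against 0.254, 0.0794 and 0.216 CPM with ethanol at 16 h. Its tamoxifen level was close at both times (-0.01 ± 0.19 between them). Hsbp1l1 had changes of 1.81 ± 0.27 at 8 h and 1.55 ± 0.27 at 16 h.

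For genes with little RNA in ethanol, the scale affects how lasting a response looks. Esrp1, an epithelial splicing regulator and one of the best known GRHL2 targets, named here after its values were seen, had 28.9, 26.9 and 27.3 CPM with tamoxifen, against 7.32, 3.98 and 6.24 CPM with ethanol at 8 h. At 16 h it had 3.60, 4.17 and 6.96 CPM with tamoxifen, against 1.78, 0.476 and 0.935 CPM with ethanol. Both treatments were lower at 16 h and did not overlap at either time. The fold of means was 4.74 at 8 h and 4.62 at 16 h, while the difference on the log2(CPM + 1) scale was -0.57 ± 0.38 (limma adjusted p = 0.89). With a pseudocount of 0.1 that difference was -0.06, and with a pseudocount of 5 it was -0.91 (limma adjusted p = 0.020). A pair of well-measured genes had the same pattern without this dependence. Arap2, a GTPase activator, had a fold of means of 2.18 at 8 h (107 ± 6.62 CPM with tamoxifen and 49.0 ± 7.93 CPM with ethanol) and of 1.91 at 16 h (37.5 ± 5.61 CPM with tamoxifen and 19.6 ± 1.74 CPM with ethanol). Cldn4, a claudin of tight junctions, had folds of 1.69 (181 ± 8.82 CPM with tamoxifen and 107 ± 6.46 CPM with ethanol) and 1.59 (64.2 ± 6.62 CPM with tamoxifen and 40.4 ± 6.12 CPM with ethanol).

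**Figure D4:**
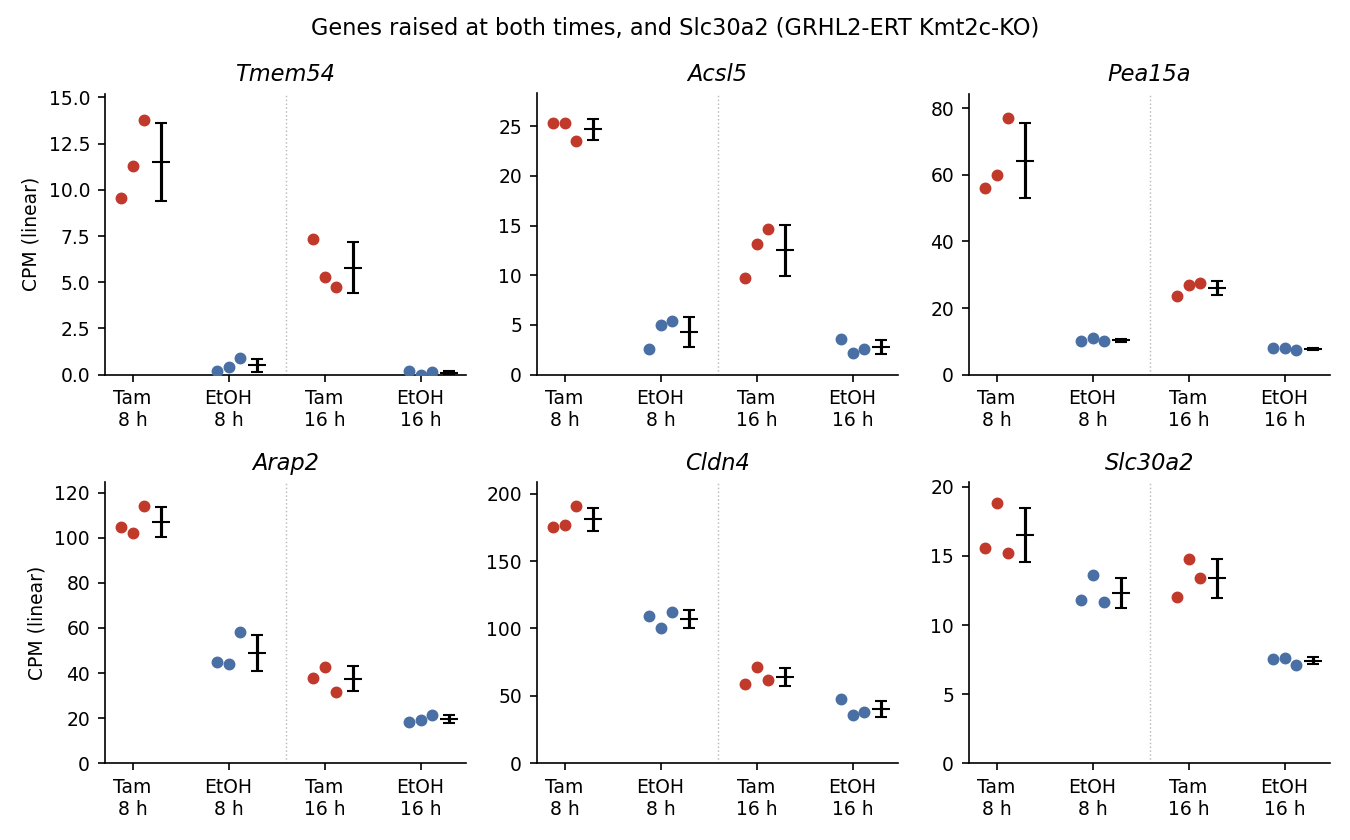
CPM on a linear axis from 0 in each tamoxifen (red) and ethanol (blue) library at 8 h and 16 h, for Tmem54, Acsl5, Pea15a, Arap2, Cldn4 and Slc30a2; bars give the mean and SD of 3 libraries. Red points lie above blue points at both times in all 6 genes, and in Arap2 and Cldn4 both treatments are lower at 16 h than at 8 h.

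The 4 genes called at 16 h and not at 8 h had no call in the difference between times. Slc30a2, a zinc transporter gene (chromosome 4, 134343181 to 134354484), had 15.6, 18.8 and 15.2 CPM with tamoxifen, against 11.8, 13.6 and 11.7 CPM with ethanol at 8 h, and 12, 14.8 and 13.4 CPM with tamoxifen, against 7.54, 7.62 and 7.12 CPM with ethanol at 16 h. It was higher with tamoxifen in all libraries at both times (0.39 ± 0.14 at 8 h and 0.77 ± 0.14 at 16 h; difference 0.38 ± 0.19, limma adjusted p = 0.80). Hopx, an atypical homeodomain gene, had at most 0.508 CPM with tamoxifen and 0.0811 CPM with ethanol at 8 h, and 2.63, 2.33 and 2.38 CPM with tamoxifen, against 0.254, 0.715 and 0.431 CPM with ethanol at 16 h. Calcoco2, an autophagy receptor gene, had 568 ± 24.9 CPM with tamoxifen and 503 ± 46 CPM with ethanol at 8 h, and fell at 16 h, with 287 ± 24.3 CPM with tamoxifen and 376 ± 21 CPM with ethanol. Its changes were 0.18 ± 0.09 at 8 h and -0.39 ± 0.09 at 16 h (difference -0.57 ± 0.12, limma adjusted p = 0.071). After median-of-ratios scaling, or with CPM recomputed without Rn45s, 0 genes were called lower at 16 h. The call of Calcoco2 thus depends on the scaling, and its difference had a limma adjusted p of 0.37 after median-of-ratios scaling. Plac9a had no tags in any of these libraries at 8 h, and 6.65, 8.69 and 6.6 CPM with tamoxifen, against 0, 0 and 3.96 CPM with ethanol at 16 h. Transgene-free cells with tamoxifen had 13.1, 9.15 and 5.27 CPM of Plac9a at 16 h, which has a near-identical copy, so its call is uncertain.

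A further 12 genes came from those called at 8 h with a log2 change of at least 1 in size and groups apart. All had a 16 h change that was much smaller or of opposite sign, and no call in the difference. They were the 6 increases and 6 decreases with the smallest p of the difference. A weaker 16 h response thus follows from the choice and is no result. The 6 raised at 8 h were C1qtnf1, Gstt3, Rhox9, Sowahb, Gulp1 and Dysf. Gstt3, a glutathione transferase gene, had 14 ± 1.02 CPM with tamoxifen and 5.32 ± 2.68 CPM with ethanol at 8 h, and 3.20 ± 0.172 CPM with tamoxifen and 3.98 ± 1.29 CPM with ethanol at 16 h. Rhox9, a neighbour of Rhox6, had 25.1, 24.9 and 21.7 CPM with tamoxifen, against 6.00, 11.3 and 11.1 CPM with ethanol at 8 h, and 8.72, 11.8 and 11.2 CPM with tamoxifen, against 9.72, 8.86 and 9.97 CPM with ethanol at 16 h. Rhox9 groups were apart at 8 h and overlapped at 16 h (difference -1.16 ± 0.28; limma adjusted p = 0.18). C1qtnf1 had 1.37, 3.85 and 1.29 CPM with tamoxifen, against 0.0595, 0.367 and 0.568 CPM with ethanol at 8 h, and 0.3, 0.919 and 0.892 CPM with tamoxifen, against 1.14, 1.43 and 1.51 CPM with ethanol at 16 h, so that tamoxifen was the higher group at 8 h and the lower one at 16 h. The 6 lowered at 8 h were Ncam1, Rap1gap, Etv1, Cpsf4l, Spn and Myo1f. In Ncam1 the groups were still apart at 16 h, with 23.7, 24 and 22.7 CPM with tamoxifen, against 28.5, 27.4 and 27.7 CPM with ethanol. Rap1gap, which turns off the GTPase RAP1, had 4.10 ± 0.532 CPM with tamoxifen and 11.6 ± 1.92 CPM with ethanol at 8 h, and 4.29 ± 0.242 CPM with tamoxifen and 4.30 ± 0.376 CPM with ethanol at 16 h. Here the ethanol level came down to the tamoxifen level. Etv1, an ETS factor gene, had 3.37 ± 0.956 CPM with tamoxifen and 9.50 ± 1.84 CPM with ethanol at 8 h, and 18.5 ± 3.77 CPM with tamoxifen and 22.7 ± 2.47 CPM with ethanol at 16 h, so that both treatments were higher at 16 h.

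Epithelial genes were described as lists, by counts and medians over members. Of 44 tested GRHL2 epithelial targets, 24 rose and 0 fell at 8 h, and 11 rose and 0 fell at 16 h, with 0 called in the difference. Over all tested genes 2.92% rose and 2.04% fell at 8 h, 0.29% rose and 0.00806% fell at 16 h, and 0.0644% were called in the difference, so that in the lists below 0 calls at 16 h or in the difference is no more than the share over all genes would give and is no result about a list. The epithelial targets had a median change of 0.97 at 8 h and 0.49 at 16 h, against 0.03 and -0.02 over all tested genes. Of these targets 42 of 44 had a difference below 0 (median -0.46, against -0.06), as did 7117 of all 12414 tested genes. Earlier results on these libraries named 16 members of the list, so its direction is not independent evidence, and the other 28 had medians of 0.52 at 8 h and 0.27 at 16 h, with 26 differences below 0. Of 18 tight junction genes 6 rose at 8 h (Cgn, Cldn4, Cldn6, Cldn7, Marveld3 and Crb3) and 2 at 16 h (Cldn4 and Cldn6). Crb3, an apical polarity gene, had 11.3 ± 0.231 CPM with tamoxifen and 5.24 ± 1.5 CPM with ethanol at 8 h, and 3.41 ± 0.172 CPM with tamoxifen and 3.57 ± 0.859 CPM with ethanol at 16 h. Of 15 desmosome and adherens junction genes 2 rose at 8 h and 2 at 16 h, Ppl and Perp each time. Of 9 tested keratins 2 rose at 8 h, the simple epithelial Krt8 and Krt18 (0.57 ± 0.15 and 0.61 ± 0.15, limma adjusted p = 0.021 and 0.015). These 2 had 0.13 ± 0.15 and 0.25 ± 0.15 at 16 h. Krt19 was not called, with 0.59 ± 0.24 at 8 h (limma adjusted p = 0.19) and -0.27 ± 0.24 at 16 h.

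Trophoblast, Rhox and cholesterol synthesis lists had members raised at 8 h, when 2.92% of all tested genes rose. Of 17 trophoblast genes 6 rose at 8 h (Gata2, Esx1, Dlx3, Id2, Krt8 and Krt18) and 0 at 16 h. Their summed level was 512 to 560 CPM with tamoxifen and 399 to 408 CPM with ethanol at 8 h. At 16 h it was 167 to 191 CPM with tamoxifen and 160 to 186 CPM with ethanol. Cdx2, Elf5 and Hand1, which define the lineage, were not among the 12428 genes listed and could not be analysed. Whether other cell types took part in the result was not tested. Of 5 Rhox genes 2 rose at 8 h (Rhox6 and Rhox9) and 0 at 16 h, and all 5 had a difference below 0. Of 25 cholesterol synthesis genes 6 rose at 8 h (Fdps, Cyp51, Tm7sf2, Msmo1, Sc5d and Stard4) and 0 at 16 h, with medians of 0.34 and 0.26 and a median difference of -0.05, near that of all genes. Msmo1, a sterol oxidase gene, had 101 ± 2.64 CPM with tamoxifen and 64.1 ± 3.12 CPM with ethanol at 8 h, and 120 ± 5.30 CPM with tamoxifen and 93.4 ± 7.49 CPM with ethanol at 16 h. Of 8 oestrogen receptor targets, a list chosen because tamoxifen binds that receptor, and of 5 fibroblast feeder markers, 0 were called at either time. Over all tested genes 4.95% were called at 8 h, so 0 calls in lists this small are no result about them.

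Genes lowered at 8 h included those of pluripotency and of mesenchymal cells. Of 22 naive pluripotency genes 6 fell at 8 h (Sox2, Klf4, Klf5, Zfp42, Dppa4 and Tcl1), against 2.04% of all tested genes, and 0 fell at 16 h, when 1 gene fell in all, with medians of -0.29 and -0.10. Zfp42, a zinc finger gene also called Rex1, had 510 ± 21.6 CPM with tamoxifen and 770 ± 68.8 CPM with ethanol at 8 h, and 931 ± 54.0 CPM with tamoxifen and 1040 ± 43.3 CPM with ethanol at 16 h. Of 16 formative and primed genes 6 fell and Otx2 rose at 8 h, and Otx2 alone was called at 16 h. Dnmt3l, a cofactor of DNA methylation, had 72.6 ± 6.28 CPM with tamoxifen and 138 ± 16.3 CPM with ethanol at 8 h, and 136 ± 8.58 CPM with tamoxifen and 156 ± 6.86 CPM with ethanol at 16 h. Of 16 mesenchymal genes 3 fell at 8 h (Zeb1, Cdh2 and Sparc) and 0 at 16 h. Zeb1, a repressor of epithelial genes, had a fold of means of 0.411 at 8 h and 0.703 at 16 h (difference 0.75 ± 0.24; limma adjusted p = 0.49). Of 20 genes in the Nodal and TGF-beta list, Lefty1, Lefty2 and Apela fell and Smad3 rose at 8 h. Apela is in that list although it encodes a ligand of the apelin receptor. Lefty1, a close relative of Lefty2, had 70.7 ± 9.78 CPM with tamoxifen and 112 ± 7.6 CPM with ethanol at 8 h, and 44.6 ± 5.76 CPM with tamoxifen and 44.3 ± 2.46 CPM with ethanol at 16 h.

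**Figure D5:**
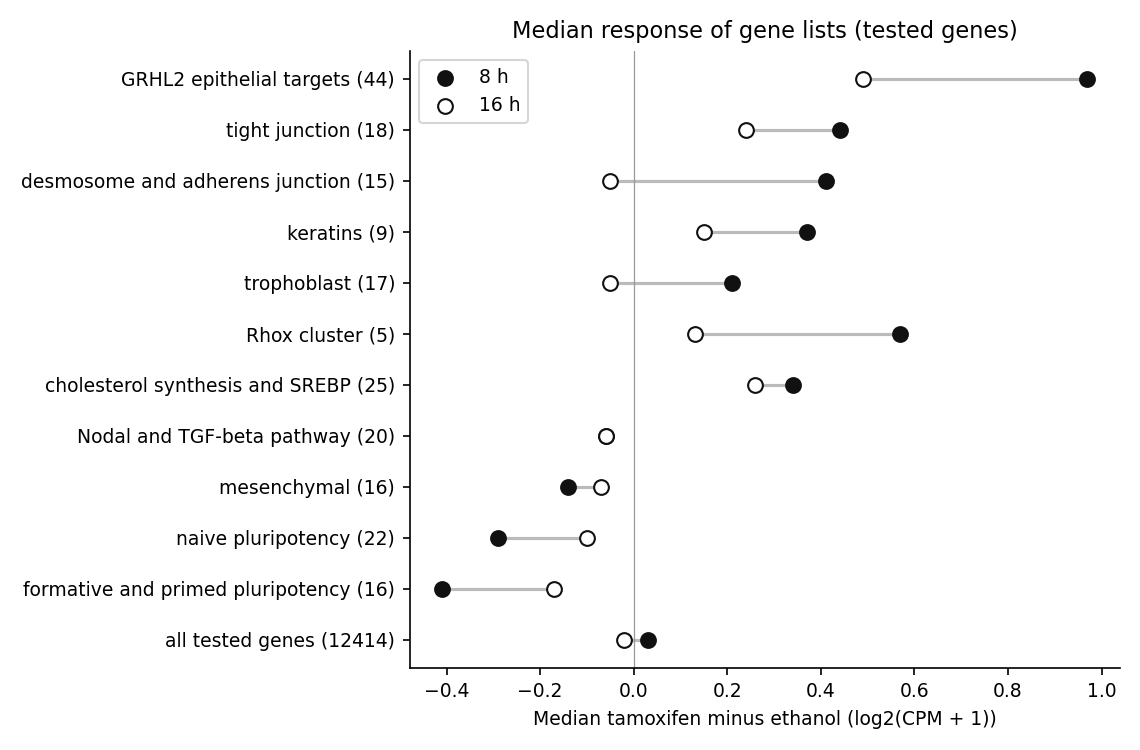
Median tamoxifen minus ethanol change, in log2(CPM + 1), over the tested genes of 11 lists and over all tested genes, at 8 h (filled) and 16 h (open); the number of tested genes is in parentheses. GRHL2 epithelial targets lie at 0.97 and 0.49, naive pluripotency genes at -0.29 and -0.10, and all tested genes at 0.03 and -0.02.

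The baseline itself moved between the times at which the response was read. In ethanol 5587 genes were called between 8 h and 16 h (45.0%), with 2177 higher (17.5%) and 3410 lower (27.5%) at 16 h. With tamoxifen 4752 were called (38.3%), with 1481 higher (11.9%) and 3271 lower (26.3%). In transgene-free cells with tamoxifen 4541 were called (36.6%), with 1352 higher (10.9%) and 3189 lower (25.7%). The labels give no preparation dates, so time in treatment and any difference in handling between the 8 h and 16 h libraries cannot be told apart. Among the 8 genes the ethanol level of Aldh3b2, Il17re, Rhox6 and Endod1 did not pass the test between times (limma adjusted p of 0.79, 0.85, 0.42 and 0.23), while in the tamoxifen libraries each of these was lower at 16 h (log2 differences of -1.87, -1.65, -1.49 and -1.75). In transgene-free cells with tamoxifen Endod1 was lower at 16 h too (-0.77 ± 0.21, limma adjusted p = 0.0045). Aldh3b2, Il17re and Rhox6 did not pass that test there (limma adjusted p of 0.66, 0.62 and 0.72). Pmp22, Klhl13 and Lefty2 were lower and Apela was higher at 16 h in ethanol.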

How the data were processed

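RNA was measured by QuantSeq 3' FWD tag sequencing of 30 libraries, from 200 ng RNA each, per the labels' protocols; Salmon, mm10 and DESeq2 1.34.0 are listed in the submitters' processing notes, without their roles. The authors deposited 12428 genes as log2(CPM + 0.124871), an offset read from the values, with 10 mean columns and 6 difference columns that were not used. Columns were matched to groups by name, and the columns of the line with ethanol controls were taken as GRHL2-ERT Kmt2c-KO, the only such Kmt2c-KO line in the labels. The values are not counts, so no count test was used, but 95.6% to 97.6% of low values in the 12 libraries were whole reads within 0.05 reads, which gave the depths.

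Values were returned to CPM, and log2(CPM + 1) was fitted by group over all 30 libraries with limma 3.58.1 in R 4.3.3 (trend and robust options, 20 residual degrees of freedom). Genes averaging at least 1 CPM in a group were kept (12414), and 14 were removed. Fold changes on this scale understate changes of low genes. The fit was also run on simulated data, with normal noise of the same spread in all groups for each gene. Such data cannot show how the fit does where groups differ in spread, and the outcome is not given here. Named genes are all those called in the difference, then fixed numbers of genes ranked among those raised at both times, called at 16 h only, or called at 8 h with a much smaller 16 h change, up to 3 per list by p of the difference, and those called in double-KO cells. Many genes of the lists and of the double-KO calls are not described in the text, and 1 other gene is not reported here. The members and lists were chosen with earlier results of these data known. Alternatives changed the pseudocount, filter, scaling, weights, replicate block, libraries fitted and Rn45s handling. Coordinates are mm10, by symbol from GENCODE M21.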

Additional observations from a re-analysis of the deposited data

Results flagged for a closer look

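For 8 genes the tamoxifen response differed between 8 h and 16 h by a test of that difference itself (limma, Benjamini-Hochberg adjusted p between 0.0020 and 0.048). The 16 h minus 8 h value was -1.94 for Aldh3b2, -1.71 for Pmp22, -1.60 for Il17re, -1.44 for Endod1, -1.32 for Rhox6 and -0.90 for Klhl13. It was 0.81 for Lefty2 and 0.82 for Apela. With 3 libraries a group, no test for a library apart from its group was run; replicate correlations are given in the report.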

How the results depend on the processing

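All 8 differences kept their sign in all 24 alternatives. The count of 8 became 5 with an absolute log2 value of at least 1 and 5 with a pseudocount of 0.1, 28 with a pseudocount of 5, 14 with Rn45s as a covariate, 89 with array weights, 26 with the contrast's libraries alone, and 24 without the double-KO tamoxifen libraries at 8 h, or 15 without replicate 2 of that group alone, alternatives chosen after seeing the data. The count of 615 at 8 h became 204 with the size limit, 1116 with weights, 1355 without those double-KO libraries and 1234 without that replicate, and 445 with the Rn45s covariate, of which 273 were among the 615; the count of 37 at 16 h became 24 with the size limit, 242 with weights, 65 and 59 without those libraries or that replicate, and 174 with the contrast's libraries alone. The count of 19 against transgene-free cells became 63 (pseudocount 5), 36 (covariate), 222 (weights), 144 (contrast's libraries) 75 (without those double-KO libraries) and 73 (without that replicate). The count of 0 between lines became 2 with a pseudocount of 5. The median difference of genes raised at 16 h became -0.15 with a pseudocount of 0.1 and -0.18 after median-of-ratios scaling. Leaving out 1 of the 12 libraries gave 1 to 6 calls of the difference, 320 to 604 at 8 h, 22 to 42 at 16 h, 0 to 1 between lines, 4 to 27 against transgene-free cells, and medians of -0.33 to -0.22 for genes raised at 16 h. The cause of these shifts was not tested.

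Replicate numbers did not pair the samples: deviations of same-numbered tamoxifen and ethanol libraries correlated at -0.09, 0.126 and -0.045 at 8 h and 0.041, -0.051 and -0.037 at 16 h. With a replicate block over all libraries 7 genes were called. With a replicate block within each GRHL2-ERT line and time 3 were called. Transgene-free cells had no such block. Under it the fitted GRHL2-ERT tamoxifen level stands for a single replicate and the transgene-free level for a group mean. The 0 calls against transgene-free cells under that block are thus no result. Comparisons for single genes covered the 8 called genes with Tcl1 and Wnt7b, which were not called in the main fit. Of these comparisons, 158 kept their side of the threshold, 67 lost a call, 15 gained a call and 0 reversed. The 15 gains were all of Tcl1 and Wnt7b, and for them keeping their side meant staying uncalled. At 3 reads for 0.138 to 0.244 CPM, ethanol levels of Aldh3b2, Il17re and Lypd2 lay at or near the counting limit.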
